A study of Glycine max with 6 samples.

Results

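In soybean leaves at full bloom, 69 of the 66184 genes on the array (0.104%) stood at least 16-fold higher in drought-stressed plants than in well-watered plants, with every drought-stressed plant above every well-watered plant. These 69 genes were chosen by their measured values. A gene entered the set when the mean log2 value of 3 drought-stressed plants exceeded that of 3 well-watered plants by 4 or more and the lowest drought-stressed plant lay above the highest well-watered plant. There were 81 genes that met both limits, and 12 of them are among 16 identifiers that the rule sets aside, so 69 remained. The difference between the treatments is therefore what selected the genes and is given here as a description, with no test. Names were at hand for 3 of the 69, a 9-cis-epoxycarotenoid dioxygenase and 2 NAC transcription factors. The other 66 are given by their identifiers of the Glyma1 annotation alone, because the gene descriptions used here covered 1831 genes of chromosome 1, which held 0 members, and the lists of hormone and NAC genes. The RefSeq table at hand (59048 genes, assembly Glycine_max_v4.0) uses other identifiers, and 0 of those on the array were found in it.

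Total RNA came from the third trifoliate leaf, counted from the shoot, of the cultivar Williams 82 at the R2 reproductive stage, and was hybridised to Affymetrix Soybean Gene 1.0 ST arrays, 1 array per plant. Plants grew 3 to a pot in a greenhouse. The drought-stressed group (plants 11, 12 and 13) received no water for 5 days from the start of flowering, while the well-watered group (plants 1, 3 and 4) was watered throughout. It is not stated whether a treatment took up 1 pot or several, so pot and treatment cannot be told apart. A p-value then measures only the spread between these plants and their arrays, and not that between pots. Each value is a log2 expression from which the gene's own median over the 6 arrays has been taken away. The lowest drought value and the highest well-watered value of a member therefore have the same size with opposite signs. Levels are lost, markers of leaf tissue could not be checked, and no gene's level can be set against another's. In whole leaves, a change in the share of a cell type cannot be told apart from a change of RNA per cell.

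A leaf that loses water raises the hormone abscisic acid, which closes stomata and switches on protective genes. The cleavage of a carotenoid by 9-cis-epoxycarotenoid dioxygenase (NCED) is regarded as the step that limits how fast the hormone is made. NAC proteins are a plant-specific family of transcription factors, several of which act in drought responses and in leaf senescence.

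The named members came from both of these classes. Glyma08g18800, described as similar to the dioxygenase NCED5, had log2 values of -2.35, -2.14 and -2.24 in well-watered plants 1, 3 and 4 and of 2.17, 2.22 and 2.14 in drought-stressed plants 11, 12 and 13. The 3 drought-stressed plants were very close to each other, with an SD of 0.04 against 0.10 in the well-watered plants. The difference was 4.42 with a standard error (SE) of 0.16, which is 21.5-fold. For GmNAC092 (Glyma12g35000) the well-watered plants read -1.81, -2.35 and -1.91 and the drought-stressed plants 1.81, 2.41 and 2.19, a difference of 4.16 (SE 0.22). GmNAC038 (Glyma06g15990) read -1.75, -1.88 and -1.78 in well-watered plants and 1.75, 2.39 and 2.46 in drought-stressed plants, a difference of 4.01 (SE 0.21). In both NAC genes plant 11 was the lowest of the drought-stressed plants, and the groups were far apart. Both NAC genes lie close to the limit of 4. After quantile normalization of these centred values their differences were 3.88 and 3.75, so neither would have entered the set. That of the NCED5-like gene was then 4.08.

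Across the set, the differences began at the limit and thinned out quickly. There were 50 genes with a log2 difference between 4 and 5, 14 between 5 and 6, and 5 at 6 or above. The median was 4.42 (21.5-fold), against 0.02 over all genes, and SEs ran from 0.16 to 0.50 with a median of 0.25. The gap between the lowest drought-stressed and the highest well-watered plant ran from 2.62 to 6.40 on the log2 scale, with a median of 3.71. The narrowest of these gaps still spanned 6.14-fold, and 27 genes had a gap of at least 4. Every member was also called higher by limma (adjusted p under 0.05 and at least 2-fold), a call made for 4.98% of all genes, and the lack of overlap that the rule required was met by 18.6% of all genes. Both follow from the way the genes were chosen.

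**Figure D1:**
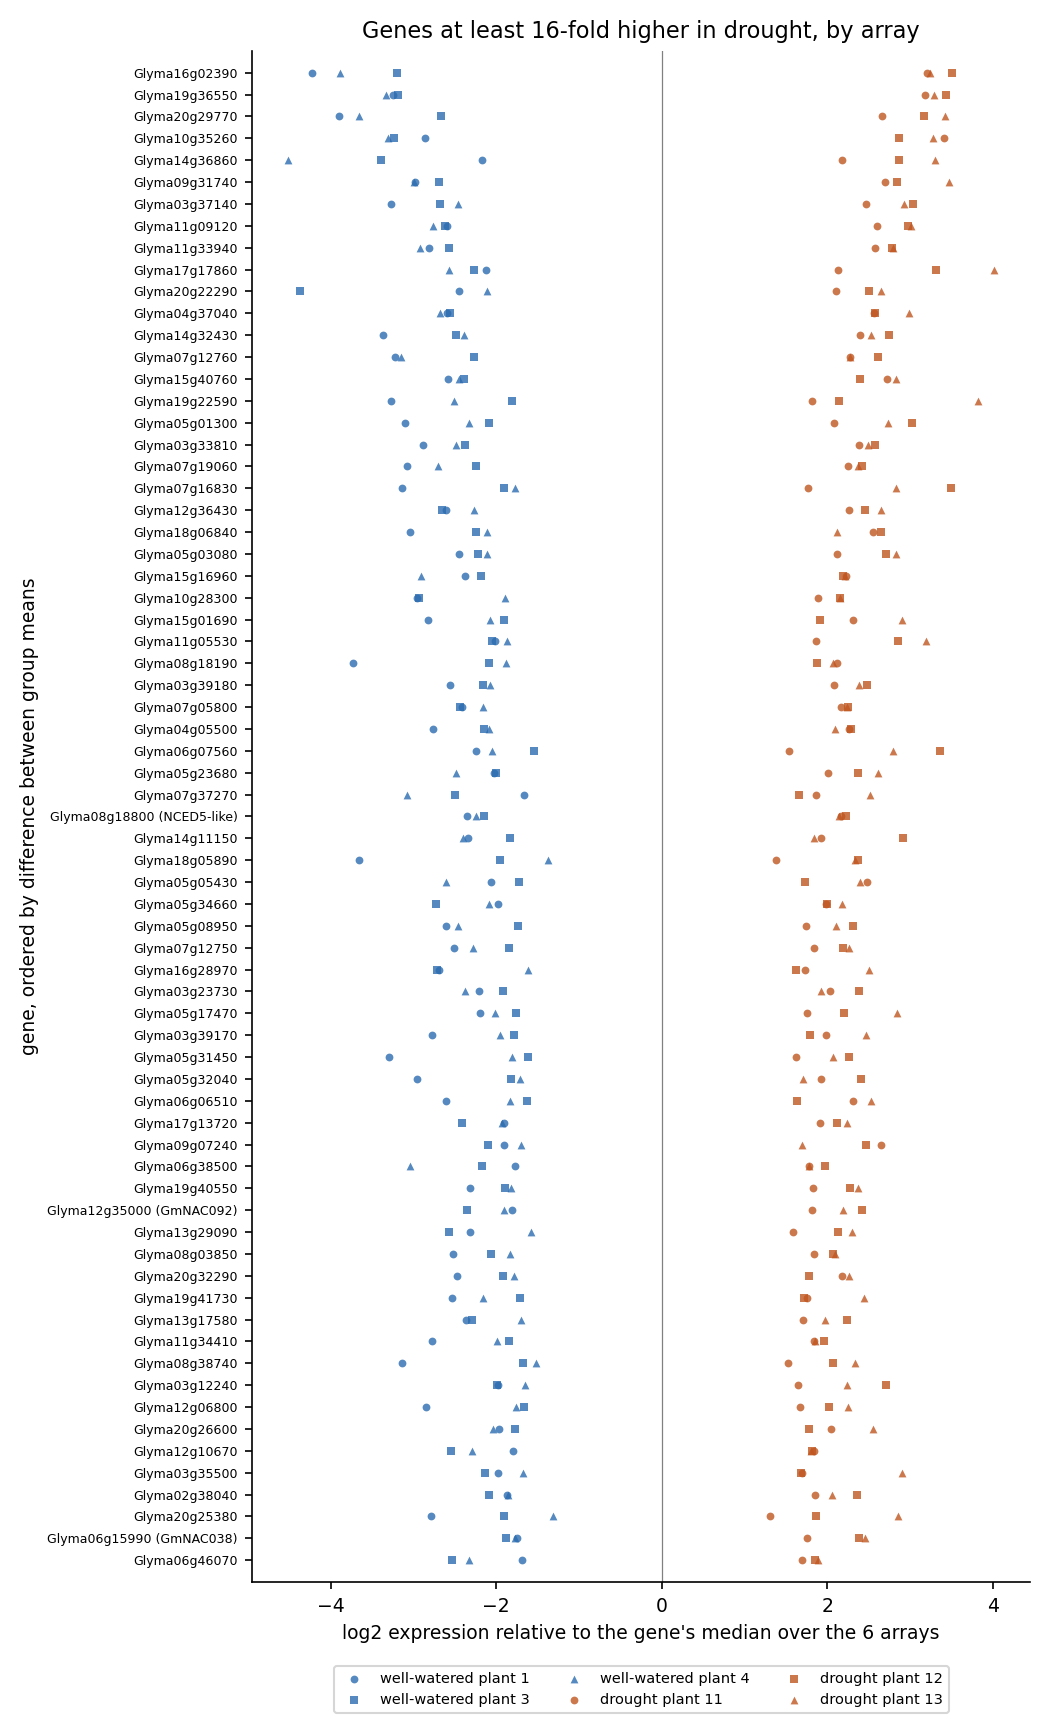
Log2 expression relative to the gene's median (horizontal axis) in each of the 6 plants for the 69 genes, ordered from the largest difference between treatments at the top. Blue symbols are the 3 well-watered plants and orange symbols the 3 drought-stressed plants. In every gene all blue symbols lie to the left of all orange ones, by 2.62 to 6.40 log2 units.

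The largest difference of all was that of Glyma16g02390, with -4.23, -3.20 and -3.89 in well-watered plants 1, 3 and 4 and 3.20, 3.50 and 3.24 in drought-stressed plants 11, 12 and 13, a difference of 7.09 (SE 0.25) or 136-fold. No other member reached 7. Its values in drought-stressed plants were close together, and its well-watered values were spread over about a log2 unit. The gene after it, Glyma19g36550, read -3.25, -3.18 and -3.33 without drought and 3.18, 3.43 and 3.29 with it, a difference of 6.56 (SE 0.16) or 94.3-fold. Glyma20g29770 read -3.90, -2.67 and -3.66 and then 2.67, 3.17 and 3.42, a difference of 6.49 (SE 0.31). Glyma10g35260 read -2.86, -3.24 and -3.30 and then 3.41, 2.86 and 3.28, a difference of 6.32 (SE 0.20), and was 1 of 6 members in which plant 11 was the highest of the drought-stressed plants.

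The fifth gene, Glyma14g36860, had -2.18, -3.39 and -4.52 in well-watered plants and 2.18, 2.87 and 3.30 in drought-stressed plants. Its difference of 6.14 thus had an SE of 0.50, and its 3 well-watered plants differed among themselves by more than 2 log2 units. The differences of the next 4 genes were 5.89 for Glyma09g31740, 5.62 for Glyma03g37140, 5.52 for Glyma11g09120 and 5.48 for Glyma11g33940, with SEs of 0.22, 0.24, 0.18 and 0.17. In these 4 genes every plant lay within 1 log2 unit of the other plants of its group. Glyma17g17860, the last of the largest 10, read -2.12, -2.27 and -2.57 in well-watered plants, while its drought-stressed plants spread over 2.12, 3.31 and 4.02, a difference of 5.47 (SE 0.39).

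The limit of 4 cuts through a continuous run of genes. Just inside it lay Glyma06g46070 with 4.00, GmNAC038 with 4.01 and Glyma20g25380 with 4.01. Just outside, and so not in the set although their groups did not overlap either, lay Glyma09g26080 with 3.996, Glyma02g00730 with 3.99 and Glyma08g12100 with 3.98. These 6 differences are closer to each other than any of their SEs, which ran from 0.19 to 0.42. A further 159 genes with groups that did not overlap had a difference between 3 and 4.

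The replicates were not equally tight. The gene with the largest SD was Glyma20g22290, which read -2.45, -4.36 and -2.11 in well-watered plants and 2.11, 2.50 and 2.64 in drought-stressed plants. Its well-watered SD of 1.22 came from plant 3, which lay about 2 log2 units below the others. Glyma18g05890 read -3.65, -1.96 and -1.38 and then 1.38, 2.37 and 2.33, with a well-watered SD of 1.18 in which plant 1 was the low one. The third was Glyma14g36860, described above, with 1.17. At the other end, Glyma07g05800 read -2.41, -2.44 and -2.16 and then 2.16, 2.25 and 2.24, and it shared the tightest replicates with the NCED5-like gene and Glyma19g36550. An SD above 1 occurred in 5 genes, 4 times among well-watered and 1 time among drought-stressed plants, and 15 genes had SDs under 0.3 in both groups.

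The median SD of the 69 genes was 0.291 in drought-stressed and 0.378 in well-watered plants, a ratio of 0.77, and the drought SD was the larger one in 27 genes (39.1%). For the 3212 other genes called higher in drought, the medians were 0.247 and 0.246, a ratio of 1.00. Over all 66184 genes the ratio was 0.691, with the drought SD larger in 34.9%. The set thus showed more spread among well-watered than among drought-stressed plants, as did the array as a whole but not the other rising genes. These ratios come from the values as deposited. Their array medians ran from -0.107 to 0.132 in well-watered and from -0.00459 to 0.0353 in drought-stressed plants. With array medians subtracted the ratio of the 69 genes was 0.836, and the other ratios were not computed in that way. These ratios were not tested against each other.

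**Figure D2:**
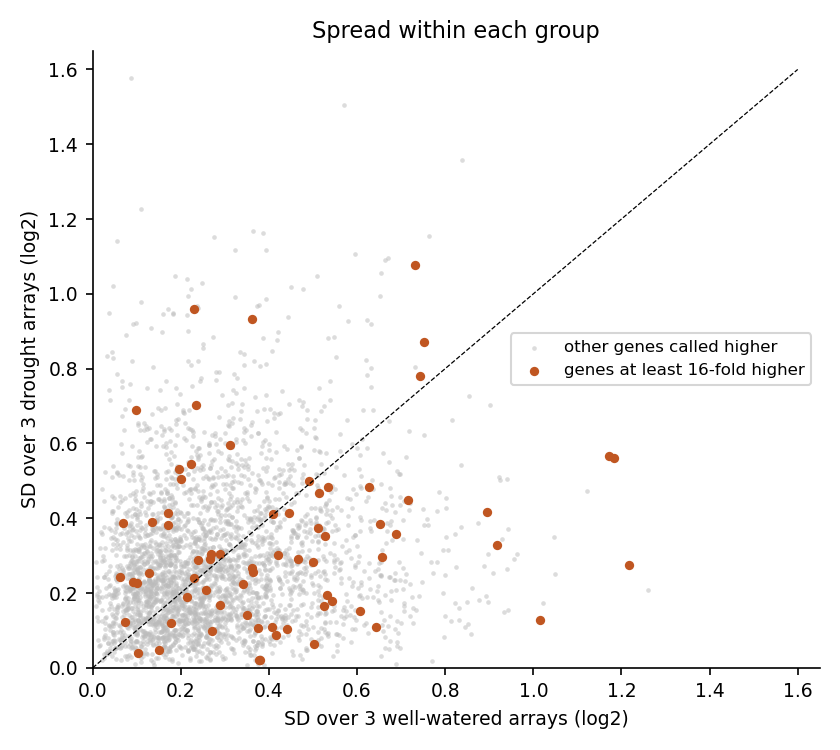
SD over the 3 drought-stressed plants (vertical axis, log2) against SD over the 3 well-watered plants (horizontal axis, log2) for the 69 genes (orange) and the 3212 other genes called higher in drought (grey), with the dashed line where both are equal. Of the orange points, 27 lie above the line, and the 4 farthest to the right have a well-watered SD above 1.

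In the values as deposited, single plants stood apart in many members at once. Among the drought-stressed plants, plant 11 was the lowest in 47 of the 69 genes (68.1%), against 51.5% of the other genes called higher and 37.2% of all genes. The median of the 69 genes was 2.01 in plant 11, 2.36 in plant 12 and 2.39 in plant 13. Plant 13 was the highest in 36 genes (52.2%), against 55.3% of the other genes called higher and 40.2% of all genes. Plant 12 was the highest in 27 (39.1%), against 30.8% and 29.7%. Plant 11 was the lowest in 43 of the 69 genes when each array's median was subtracted. After quantile normalization of the centred values it was the lowest in only 21 of the 69, so the pattern depended on the scaling. In Glyma17g17860, Glyma07g16830 and Glyma06g07560, plant 11 lay more than 1 log2 unit below both other drought-stressed plants. Glyma07g16830, for instance, read 1.77 in plant 11 against 3.50 and 2.83 in plants 12 and 13, and Glyma06g07560 read 1.54 against 3.36 and 2.79. These last genes were singled out after their values were seen.

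Among the well-watered plants, plant 1 was the lowest in 37 of the 69 genes (53.6%), close to its share of 50.8% over all genes. The median of all genes on its array was -0.107, against 0.132 for plant 3 and -0.0311 for plant 4, while the drought-stressed arrays had medians from -0.00459 to 0.0353. The median of the 69 genes was -2.56 in plant 1, -2.15 in plant 3 and -2.11 in plant 4. In 7 genes, also singled out after their values were seen, plant 1 lay more than 1 log2 unit below both other well-watered plants. One of these was Glyma08g18190, with -3.73 in plant 1 against -2.08 and -1.88 in plants 3 and 4. Its drought-stressed plants were close together at 2.12, 1.88 and 2.07. The others were Glyma18g05890, Glyma05g31450, Glyma08g38740, Glyma07g16830, Glyma12g06800 and Glyma05g32040. Without plant 1, 56 of the 69 genes still met both limits, and without plant 13, 59 did. The part of differences between plants or arrays in these patterns was not tested.

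**Figure D3:**
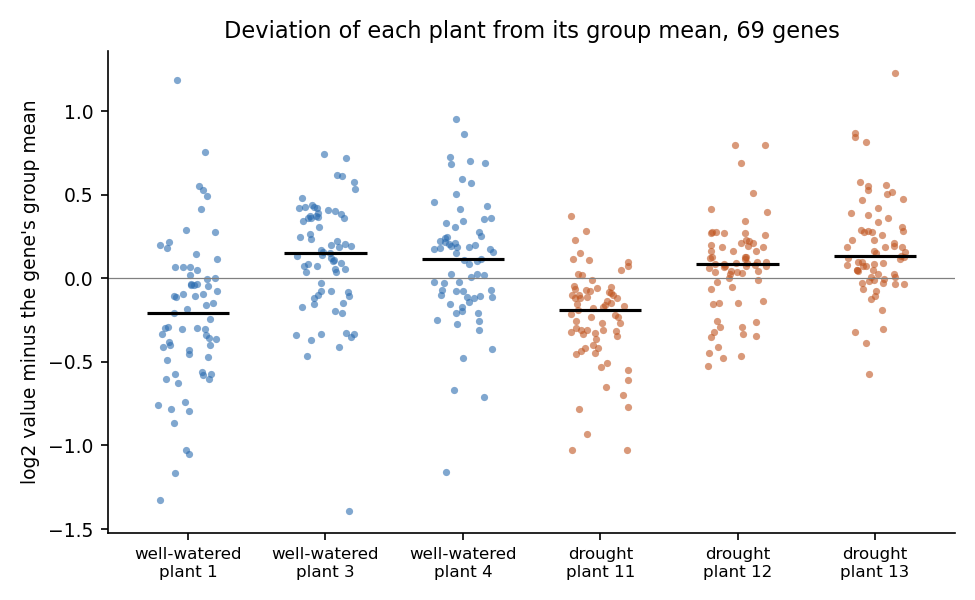
Log2 value of each plant minus the mean of its group (vertical axis) for each of the 69 genes, by plant (horizontal axis), with a black bar at the median. The medians are -0.211 for well-watered plant 1 and -0.19 for drought-stressed plant 11, and lie above 0 for the other 4 plants.

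The identifiers number the genes along each chromosome, so they show where the members lie, although not their distance in bases. The 69 genes were spread over 19 of the 20 chromosomes, with none on the 428 genes of unplaced scaffolds. Chromosome 5 held the most, 9 of its 2865 genes or 3.14 in 1000, while the share of its genes called higher, 4.82%, was near the background of 4.98%. Chromosome 3 held 7 members and chromosome 7 held 6. Chromosome 1 held none once the identifiers set aside were left out.

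Members were adjacent to each other at 2 places. Glyma03g39170 read -2.77, -1.79 and -1.96 in well-watered and 1.98, 1.79 and 2.47 in drought-stressed plants, a difference of 4.25 (SE 0.28). Its neighbour Glyma03g39180 read -2.56, -2.16 and -2.08 and then 2.08, 2.48 and 2.38, a difference of 4.58 (SE 0.19). In both genes well-watered plant 1 was the lowest. The other pair was Glyma07g12750, with a difference of 4.31 (SE 0.21), and Glyma07g12760, with 5.27 (SE 0.26). No other member had a member within 5 places.

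Genes next to a member were called higher in drought more often than genes over the whole array, although most of them were not called. Of the 134 genes directly beside a member, leaving out members and the identifiers set aside, 23 were called higher (17.2%, against a background of 4.98%) and 1 was called lower (0.746%, against 4.63%). The share fell to 7.25% at 2 places, 5.07% at 3, 4.35% at 4 and 7.25% at 5 places. Over 1 to 5 places, with each gene counted once, it was 54 of 670 genes (8.06%), and over 6 to 10 places 41 of 674 (6.08%). Beside the other genes called higher, the share at 1 place was 754 of 6116 (12.3%), with 189 called lower (3.09%). The 2 shares do not leave out the same genes. Members beside a member were not counted in the first, while other rising genes beside each other were counted in the second. The difference between 17.2% and 12.3% was not tested. Under the alternatives, between 15 and 32 of the 134 adjacent genes were called higher, with 15 under the t-test of the study's methods, where the background was 3.5%, and 32 by adjusted p alone, where it was 9.96%. Every drought-stressed plant lay above every well-watered plant in 49 of the 134 (36.6%, against 18.6% of all genes). At least 1 adjacent gene was called higher for 21 of the 69 members.

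The following adjacent genes were chosen after their values were seen. Glyma15g16950, beside Glyma15g16960, read -1.51, -1.85 and -1.63 in well-watered plants and 1.51, 1.73 and 1.66 in drought-stressed plants, a difference of 3.29 (SE 0.17), and the member itself had 4.70 (SE 0.20). Glyma19g40560, beside Glyma19g40550, had a difference of 2.98 (SE 0.28) against 4.17 (SE 0.21) for the member. Glyma12g06800 had a gene called higher on both sides, Glyma12g06790 with 2.28 (SE 0.16) and Glyma12g06810 with 1.91 (SE 0.23). Both NAC members had an adjacent gene called higher at a smaller size, 1.22 (SE 0.20) for Glyma06g15980 beside GmNAC038 and 1.00 (SE 0.20) for Glyma12g34990 beside GmNAC092. The difference of Glyma12g34990, 1.003, lay only just above the 2-fold limit of a call.

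The 1 adjacent gene that was called lower lay beside the member with the largest difference. Glyma16g02400 read 1.77, 2.27 and 2.06 in well-watered plants and -2.27, -1.77 and -2.06 in drought-stressed plants, a difference of -4.07 (SE 0.20; adjusted p = 2.3e-06, limma with Benjamini-Hochberg adjustment over all genes). Its groups did not overlap either, but in the opposite direction, while Glyma16g02390 beside it rose by 7.09. Shared probe sequence, copies of a gene in tandem and fragments of a gene under several identifiers were not tested as reasons why neighbours move together.

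**Figure D4:**
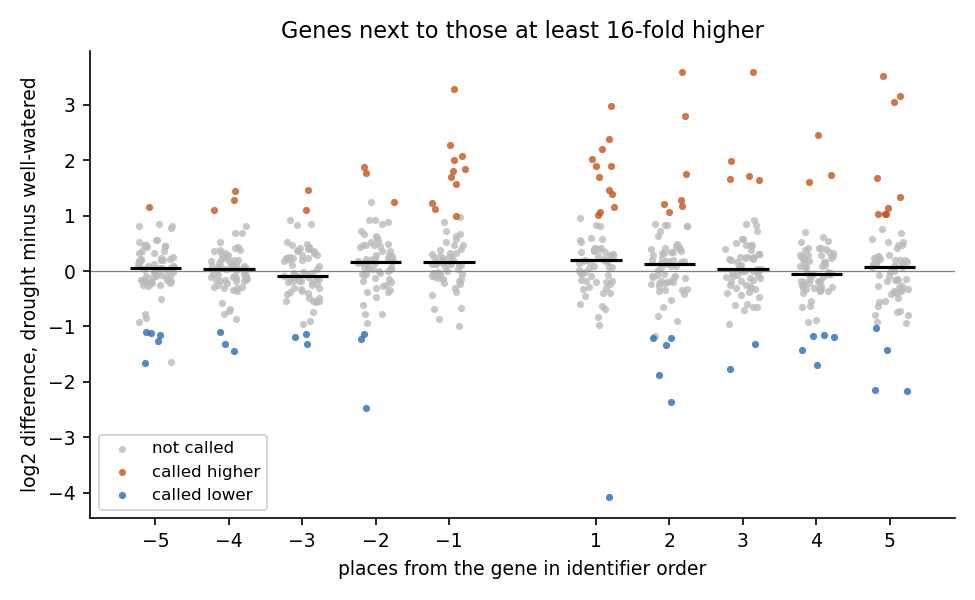
Log2 difference, drought minus well-watered (vertical axis), of each gene at 1 to 5 places before or after one of the 69 genes in identifier order (horizontal axis), leaving out the 69 themselves and the identifiers set aside. Orange and blue points were called higher and lower, and black bars are medians. Orange points are densest at 1 place, 23 of 134, and the lowest point is Glyma16g02400 at -4.07.

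The pathway of the NCED5-like member was read from the 14 abscisic acid genes that the study lists, which it chose because they changed under drought in vegetative leaves of other plants. The fit called 11 of them higher, against 4.98% of all genes, and 0 lower, against 4.63%, and 3 passed in neither direction. Their median difference was 2.97, against 0.02 over all genes. The NCED5-like gene is the only one in the set of 69, and the NCED3-like and 1 HVA22D-like gene passed the same limits but were among the identifiers set aside, with differences of 5.50 and 5.39. The calls of these genes follow from those limits. They are counted among the 11 and in the median, so neither figure is independent of the rule.

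In the order of synthesis, zeaxanthin epoxidase, the product of ABA1, makes the epoxycarotenoids that NCED cleaves. The ABA1-like gene Glyma11g05960 rose by 3.57 (SE 0.26), while the other ABA1-like gene, Glyma17g20020, had a difference of -0.06 (SE 0.19; adjusted p = 0.88 in limma). Of the genes described as NCED-like, the NCED4-like gene had a difference of -0.55 (SE 0.18; adjusted p = 0.057 in limma), unlike the NCED3-like and NCED5-like genes. Its description alone does not show that it acts in the synthesis of the hormone. AAO3, an aldehyde oxidase, catalyses the last step, and its relative Glyma14g04950 rose by 1.07 (SE 0.19). ABA3 supplies that oxidase with its cofactor, and the difference of its relative, 0.99 (SE 0.15), fell just short of the 2-fold limit of a call.

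The bZIP factors that bind abscisic acid-responsive elements act downstream of the hormone. The ABF2-like genes Glyma06g04350 and Glyma04g04170 rose by 3.57 (SE 0.17) and 3.07 (SE 0.16), the ABF1-like gene by 2.86 (SE 0.16) and the AREB3-like gene by 2.26 (SE 0.29). HVA22 genes are induced by the hormone, and the second HVA22D-like gene, Glyma10g25680, rose by 3.11 (SE 0.24). The GRAM domain gene Glyma19g27260 rose by 1.95 (SE 0.21). None of these 6 genes reached the limit of 4.

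**Figure D5:**
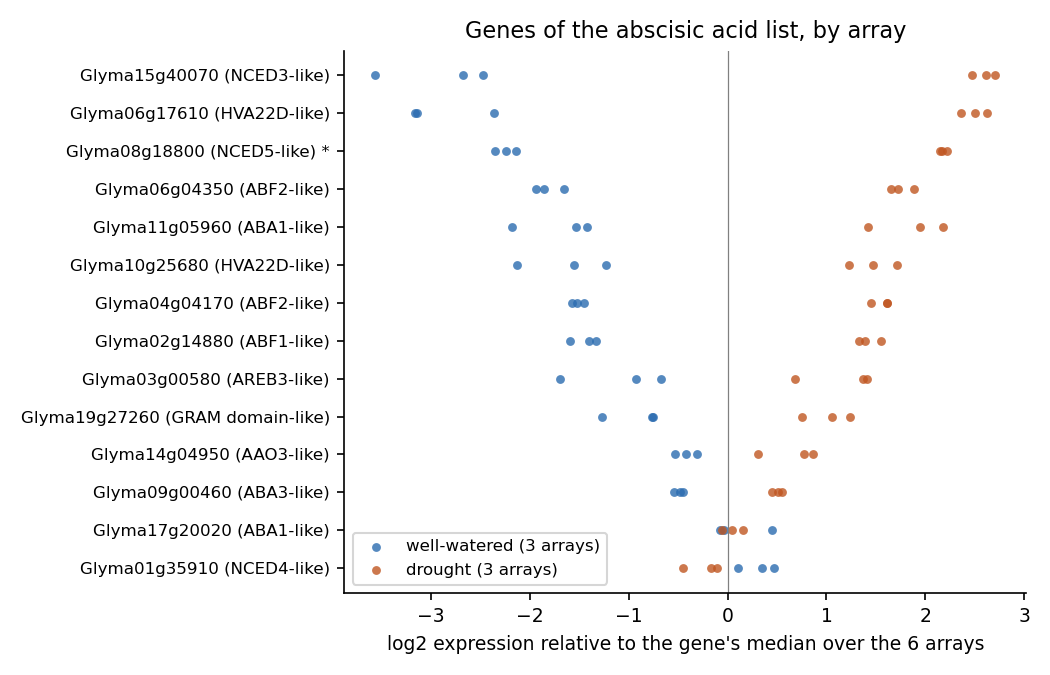
Log2 expression relative to the gene's median (horizontal axis) of the 14 abscisic acid genes in well-watered (blue) and drought-stressed (orange) plants, 3 points each. The star marks the NCED5-like member, whose 3 drought-stressed plants lie between 2.14 and 2.22, and the groups touch or cross in none of the 11 genes called higher.

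The NAC family was read from 2 lists of the study. Of 23 NAC genes it chose for a change in either direction in vegetative leaves of other plants, 13 were called higher and 2 lower (against 4.98% and 4.63% of all genes), while 8 did not pass, and their median difference was 1.06. Of 27 NAC genes it chose on these same arrays, which is no independent evidence of their direction, 23 were called higher and 4 lower, with a median of 1.91. The lists share 14 genes, and GmNAC038 and GmNAC092 are in both. Of the second list 6 genes passed the limits of the set, these 2 members and 4 of the identifiers set aside. Of the first list, the same 2 members and 3 of the identifiers set aside passed them. The calls of all these genes follow from the limits. They are counted among the genes called higher and in the medians of both lists.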

How the data were processed

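Per the study's methods, the authors used RMA (Affymetrix Expression Console), with its normalization step turned off, to obtain 1 value per gene. Log2 values were then scaled in GeneSpring by the 75th percentile of each array. The deposited log2 values are also centred on each gene's median (largest absolute median 5e-07), so signal over background is not known and dim probe sets could not be filtered. A deposited table of the authors' fold changes and p-values was not used, except for gene identifiers and names.

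Values were used as deposited. Where quantile normalization is named as an alternative, it was applied to these centred values. It thus evened out the deviations from the gene medians across arrays, which is not the same as quantile normalization of the signal. Members were found by the rule given above. All 66184 genes were fitted with limma 3.58.1 in R 4.3.3 (lmFit, eBayes, treatment only), with Benjamini-Hochberg adjustment, and called at an adjusted p under 0.05 and at least 2-fold. The fit was tested on simulated data. SEs are those of the moderated fit. Neighbours follow identifier order. The number of arrays, 3 a group, limits the precision of every value.

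The members and lists were chosen with earlier results of these data known. By rule, the genes named are the members with a name at hand, the 10 largest differences, 3 on either side of the limit, members within 5 places of another, the 3 largest and 3 smallest SDs, and the called abscisic acid genes. The abscisic acid genes not called, the members in which plant 1 or plant 11 lay far below its group, and the adjacent genes are named besides, after their values were seen. No sequence was at hand and none is printed.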

Additional observations from a re-analysis of the deposited data

How the results depend on the processing

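No paired analysis was possible because no plant number occurs in both groups. No member's groups overlapped under any scaling or with any array left out. With an array left out this follows from the rule, because removing a value cannot narrow a gap. The array medians, from -0.107 to 0.132, are also small beside the narrowest gap of 2.62. The set held 40 genes after quantile normalization of the centred values, all of them members, and 228 or 19 with a limit of 3 or 5. It held 57 to 80 with 1 array left out, fewest without well-watered plant 1 and most without drought-stressed plant 11. Subtracting array medians gave 66 and using group medians 64. The median difference was 4.11 after quantile normalization and 4.37 to 4.54 with 1 array left out. The ratio of median SDs, 0.77, was 0.836 with array medians subtracted, 0.807 after quantile normalization and 0.785 from ranges, and was not computed with an array left out. Genes called higher numbered 6589 by adjusted p alone and 3050 to 3523 with 1 array left out. Neighbours called higher numbered 88 by adjusted p alone, 23 at 1 place only, 95 over 1 to 10 places and 50 to 60 with 1 array left out. The lists gave 10 to 12 abscisic acid genes, 22 to 23 genes of the NAC list from these arrays and 11 to 14 of the other with 1 array left out. The t-test of the methods called 2319 genes, 39 neighbours and 11, 23 and 12 list genes. Of 176 differences of 22 named members under alternatives, 11 moved by more than the gene's SD within groups, all after quantile normalization. Most of the other 165 come from leaving out 1 array, which cannot move a difference that far. Subtracting array medians shifts every difference by the same small amount. Neither setting thus measures the stability of a difference. The cause of the shifts after quantile normalization was not tested. Neighbours at 1 place and plant 11 under alternatives were added after seeing the data.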
